A study of Arabidopsis thaliana with 12 samples.

Results

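The 10 genes described here make up the part of the circadian clock of Arabidopsis thaliana, the thale cress, that follows dawn. They are the 5 pseudo-response regulators TOC1 (AT5G61380), PRR3 (AT5G60100), PRR5 (AT5G24470), PRR7 (AT5G02810) and PRR9 (AT2G46790), the large clock protein GIGANTEA (GI, AT1G22770), and the evening complex genes ELF3 (AT2G25930), ELF4 (AT2G40080), LUX (AT3G46640) and its close relative BOA (AT5G59570). They were chosen by locus, as 10 of 33560 annotated loci, and hold 15 of the 41623 annotated transcripts in the deposited table. RNA of whole plantlets of the wild-type ecotype Columbia-0 was sequenced from both ends of each fragment. All plantlets were 14 days old and had grown on agar plates of diluted Murashige and Skoog medium at 22 °C, with 16 h of light and 8 h of darkness. They were then held at 0, 4 or 10 °C or kept at 22 °C as controls, with 3 libraries per temperature, each from a plate of 10 plantlets that were pooled. For the plantlets held at 0, 4 or 10 °C the labels give 24 h in the cold, but the text on the series as a whole also names 48 and 72 h. No source used here gives the hour of harvest. A change in level and a shift in the time of day at which a clock gene peaks therefore cannot be told apart, and neither can fewer cells of a type and less RNA per cell.

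Libraries held 32870040 to 41683299 estimated counts. Levels are CPM, that is counts per 1000000 counted on annotated loci, scaled by TMM factors, which correct for the makeup of each library. All 4 green-tissue markers and all 4 root markers were above 0 at each temperature, but their levels moved. The summed level of the green markers was 21170 to 22423 CPM at 22 °C, 18341 to 18831 CPM at 10 °C, 15441 to 16345 CPM in the libraries held at 4 °C and 20128 to 20976 CPM in those at 0 °C. RBCS1A, the Rubisco small subunit gene that makes up most of that sum, differed least of the 4. Its mean was 15015 ± 693 CPM at 0 °C and 14324 ± 544 CPM at 22 °C. LHCB1.1, a light-harvesting gene, was also higher on average at 0 °C, at 4538 ± 317 CPM against 4161 ± 153 CPM at 22 °C. At 4 °C both were lower, at 11843 ± 525 and 3628 ± 170 CPM. LHCB1.1 was lowest at 10 °C, at 3012 ± 75.6 CPM. The light-harvesting gene LHCB4.2 had 3017 ± 66.9 CPM in the 22 °C libraries but 897 ± 38.4 in those at 0 °C and 282 ± 7.93 in those at 4 °C (SD, n = 3). LHCA4, another light-harvesting gene, was also highest at 22 °C, at 173 ± 20.3 CPM, and lowest at 4 °C, at 61.1 ± 10.1 CPM. The summed level of the root markers was 50.8 to 55.5 CPM at 22 °C, 41.7 to 43.7 CPM at 10 °C, 27.6 to 32.3 CPM in the libraries held at 4 °C and 35.9 to 39.3 CPM in those at 0 °C. From 22 to 0 °C CASP1, of the root endodermis, went from 29.9 ± 1.64 to 27.1 ± 1.96 CPM, CASP2 from 10.3 ± 0.596 to 4.41 ± 0.673 CPM, and the root hair gene EXPA18 from 6.30 ± 0.378 to 1.43 ± 0.279 CPM. EXPA7, the remaining root marker, went from 6.75 ± 0.209 to 4.97 ± 0.386 CPM. EXPA18 was highest at 10 °C, at 10.4 ± 0.539 CPM. The part of such shifts in the results below was not tested.

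In the textbook model of the clock, PRR9, PRR7, PRR5 and TOC1 are made one after another from morning to evening, and each represses the dawn genes CCA1 and LHY. CCA1 and LHY in turn repress evening genes through a promoter sequence called the evening element. ELF3, ELF4 and LUX form the evening complex, in which ELF3 is the scaffold, LUX the DNA-binding subunit and ELF4 a small protein bound to ELF3, and which represses PRR9, LUX itself and the growth genes PIF4 and PIF5 at night. BOA can take the place of LUX. GI stabilises the F-box protein ZEITLUPE, which marks TOC1 and PRR5 for breakdown, and PRR3 shields TOC1 from ZEITLUPE. GI also acts with FKF1 in flowering by day length.

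The 300 bases before the annotated start of each gene were searched on both strands for letters that clock factors are known to bind (RefSeq annotation of TAIR10.1). The evening element AAAATATCT was present in 4 of the 10 promoters, those of TOC1, PRR5, LUX and BOA, against 2.79% of 27443 promoters of the same length. The G-box CACGTG was also present in 4, those of PRR7, PRR9, LUX and BOA, against 7.09%. The letters GATACG, bound by LUX, occurred in the promoters of ELF3 and ELF4 (5.51% of all promoters), and the variant GATTCG in that of PRR9 (9.34%). The CCA1-binding letters AAAAATCT occurred in that of PRR5 alone (7.94%), and no searched letters were found before PRR3 or GI. No matches overlapped. PRR5 has a model that begins at its first coding base, so its window may lie inside the transcribed part. The promoters of TOC1, LUX and BOA are shown for the evening element and that of PRR9 for its paired G-boxes, read 5′ to 3′ along the gene, with the matches in capitals (a match on the other strand appears as its reverse complement). LUX and BOA carry both kinds of match, with the evening element 53 to 45 and 43 to 35 bases before the gene start. A match is a description of letters, and binding was not measured.
TOC1 (chr5:24674663-24674962, plus strand): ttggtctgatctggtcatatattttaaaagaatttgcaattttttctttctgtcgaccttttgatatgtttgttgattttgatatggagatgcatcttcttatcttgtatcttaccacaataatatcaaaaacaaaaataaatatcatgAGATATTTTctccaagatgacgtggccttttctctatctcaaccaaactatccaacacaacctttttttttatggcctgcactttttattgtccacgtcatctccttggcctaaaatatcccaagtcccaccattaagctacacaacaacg
LUX (chr3:17182742-17183041, plus strand): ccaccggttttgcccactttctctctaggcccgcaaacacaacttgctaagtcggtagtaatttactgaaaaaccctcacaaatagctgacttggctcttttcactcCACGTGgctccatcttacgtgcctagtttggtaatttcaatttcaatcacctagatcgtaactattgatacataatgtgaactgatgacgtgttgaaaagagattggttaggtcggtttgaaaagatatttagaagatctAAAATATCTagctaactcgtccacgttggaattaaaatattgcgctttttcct
BOA (chr5:24003588-24003887, plus strand): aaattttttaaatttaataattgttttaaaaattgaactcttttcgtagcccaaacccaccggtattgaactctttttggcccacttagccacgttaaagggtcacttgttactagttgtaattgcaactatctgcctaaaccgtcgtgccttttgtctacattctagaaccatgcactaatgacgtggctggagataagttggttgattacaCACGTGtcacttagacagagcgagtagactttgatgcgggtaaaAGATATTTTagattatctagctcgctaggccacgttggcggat
PRR9 (chr2:19232307-19232606, plus strand): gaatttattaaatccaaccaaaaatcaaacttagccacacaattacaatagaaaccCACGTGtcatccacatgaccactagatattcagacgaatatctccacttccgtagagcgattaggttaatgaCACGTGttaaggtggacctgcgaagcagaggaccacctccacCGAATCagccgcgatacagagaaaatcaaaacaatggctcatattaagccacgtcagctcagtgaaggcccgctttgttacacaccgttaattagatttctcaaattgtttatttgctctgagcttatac

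The comparisons with 22 °C asked which of these genes differ in the cold and at which temperature. All 10 genes differed among the 4 temperatures (edgeR quasi-likelihood F test, adjusted p under 0.05), in a series in which 88.5% of 21293 tested genes did. At 0 °C 8 genes were higher than at 22 °C, PRR7 was lower and PRR3 was not called, while over all genes 35.5% were higher and 38.8% lower. At 4 °C 7 were higher, PRR7 and PRR3 were lower and BOA was not called (background 36.3% higher, 37.6% lower). At 10 °C 6 were higher, PRR3, PRR7 and BOA were lower and TOC1 was not called (32.4% higher, 32.3% lower). The median log2 fold change of the 10 genes was 1.35 at 0 °C, 0.96 at 4 °C and 0.25 at 10 °C, beside -0.07, -0.03 and -0.01 over all tested genes. These 3 comparisons share the 22 °C libraries. Among all called genes the share called higher at 0 °C was 47.8% with TMM, 35.4% when upper quartile factors were used and 27.6% with total counts alone, and at 10 °C it was 50.1% with TMM and 61.6% with total counts alone.

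**Figure D1:**
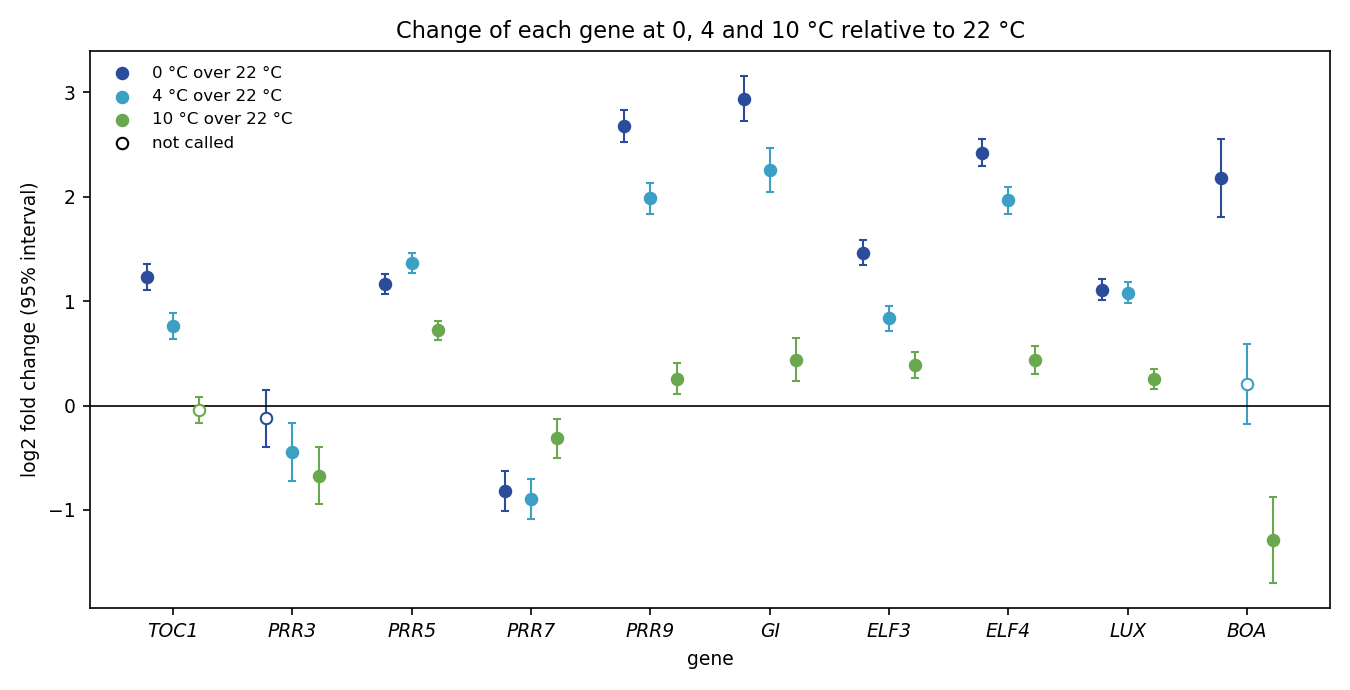
Log2 fold change of each of the 10 genes (horizontal axis) at 0, 4 and 10 °C over 22 °C, with 95% intervals from the edgeR fit of all 12 libraries. Filled points passed an adjusted p of 0.05 and open points did not. GI, PRR9 and ELF4 lie at 1.97 or more at 0 and 4 °C, PRR7 lies below 0 at all 3 temperatures, and BOA changes side between 0 and 10 °C.

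PRR9, which opens the daily series of response regulators in the morning, had the steepest gradient of the 5. It stood at 284, 253 and 288 CPM in the libraries at 0 °C, 188, 168 and 154 CPM at 4 °C, 50.6, 51.1 and 52.1 CPM at 10 °C and 42.2, 43.1 and 43.5 CPM at 22 °C. The libraries at each step of temperature did not overlap with those at the next, and the groups at 0 and 4 °C lay far above the other 2. Relative to 22 °C the log2 fold change was 2.68 ± 0.07 at 0 °C (6.41-fold, adjusted p = 2.55e-12), 1.98 ± 0.07 at 4 °C and 0.26 ± 0.07 at 10 °C (SE, n = 3 per group, edgeR). PRR7, which follows PRR9 in the morning, went the other way. It stood at 101, 85.6 and 85.4 CPM in the libraries at 0 °C, 94.5, 86.1 and 76.5 CPM at 4 °C, 129, 135 and 123 CPM at 10 °C and 171, 163 and 145 CPM at 22 °C. The 22 °C libraries were all above the others, and those at 0 and 4 °C overlapped. PRR7 fell by 0.82 at 0 °C, 0.90 at 4 °C and 0.31 at 10 °C on the log2 scale (adjusted p = 2.88e-06, 1.10e-06 and 0.00668). The call at 10 °C was lost with total counts alone (-0.16, adjusted p = 0.142).

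PRR5, which peaks in the afternoon, was highest at 4 °C and not at 0 °C. It stood at 275, 258 and 263 CPM in the libraries at 0 °C, 305, 314 and 293 CPM at 4 °C, 203, 193 and 188 CPM at 10 °C and 124, 116 and 114 CPM at 22 °C. No 2 of the 4 groups overlapped. Its log2 fold change over 22 °C was 1.16 ± 0.04 at 0 °C, 1.36 ± 0.04 at 4 °C and 0.72 ± 0.04 at 10 °C, the last being the largest rise among the 10 genes at that temperature. The difference between 0 and 4 °C was -0.20 ± 0.04 (adjusted p = 0.00169). TOC1, the evening member of the family, stood at 157, 145 and 152 CPM in the libraries at 0 °C, 115, 104 and 109 CPM at 4 °C, 65.2, 61.8 and 59.9 CPM at 10 °C and 65.0, 68.7 and 59.3 CPM at 22 °C. Its libraries at 10 and 22 °C overlapped, and those at 4 and 0 °C lay above them in steps. TOC1 rose by 0.76 ± 0.06 at 4 °C and 1.23 ± 0.06 at 0 °C, and its difference at 10 °C was -0.05 ± 0.06 (95% interval -0.17 to 0.08, adjusted p = 0.498), with the opposite sign under total counts alone (0.11).

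PRR3, which protects TOC1 from breakdown, had the lowest level per coding kilobase of the 5 regulators and the smallest range of the 10 genes on the log2 scale. It stood at 10.1, 11.9 and 13.0 CPM in the libraries at 0 °C, 10.2, 8.67 and 9.15 CPM at 4 °C, 9.20, 8.29 and 6.47 CPM at 10 °C and 13.2, 13.0 and 11.9 CPM at 22 °C. It was lowest at 10 °C, and the libraries at 0 and 22 °C overlapped. PRR3 fell by 0.67 at 10 °C (adjusted p = 5.03e-04) and by 0.45 at 4 °C (adjusted p = 0.00674). At 0 °C the difference was -0.12 ± 0.13 (95% interval -0.40 to 0.15, adjusted p = 0.391). With upper quartile factors that difference was -0.35 (adjusted p = 0.0216) and with total counts alone -0.54 (adjusted p = 0.00188), both called lower. PRR3 was thus called at the middle temperatures and not at the coldest with TMM scaling, but at all 3 with either of those scalings.

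**Figure D2:**
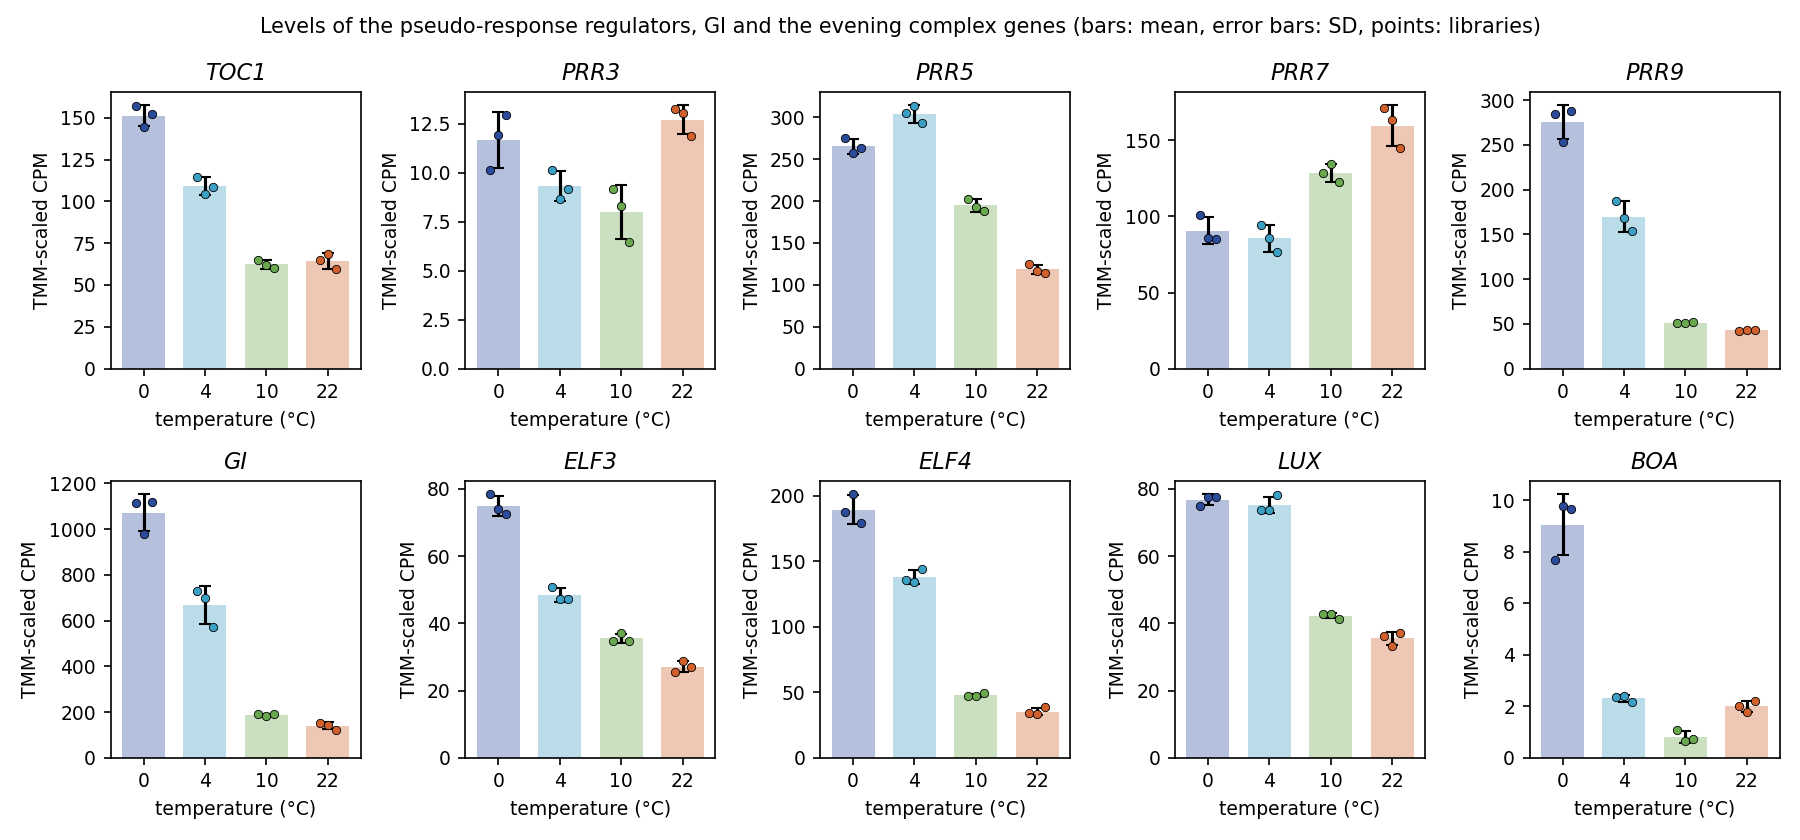
TMM-scaled CPM of each gene (vertical axes, from 0) at 0, 4, 10 and 22 °C. Points are the 3 libraries of a temperature, bars their mean and error bars the SD. PRR9, GI, ELF3 and ELF4 step down from 0 to 22 °C, PRR7 steps up from 4 to 22 °C, PRR5 is highest at 4 °C, and BOA is high at 0 °C alone.

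GI had the largest rise of the 10 genes at 0 °C. It stood at 1116, 980.0 and 1120.1 CPM in the libraries at 0 °C, 729, 701 and 573 CPM at 4 °C, 191, 185 and 191 CPM at 10 °C and 153, 143 and 123 CPM at 22 °C. The 4 groups did not overlap, and the libraries at 0 °C were all above the highest at 4 °C. GI rose 7.68-fold at 0 °C (log2 2.94 ± 0.10, adjusted p = 3.42e-11) and 4.78-fold at 4 °C (2.26 ± 0.10), and by a log2 fold change of 0.44 ± 0.09 at 10 °C (adjusted p = 0.00129). Most of its gradient lay between 10 and 4 °C, where the log2 difference was 1.82 ± 0.09.

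The 3 core subunits of the evening complex all rose at each cold temperature, by different amounts. ELF4, the small subunit, stood at 187, 201 and 179 CPM in the libraries at 0 °C, 136, 134 and 144 CPM at 4 °C, 46.9, 47.0 and 49.2 CPM at 10 °C and 34.0, 33.2 and 38.5 CPM at 22 °C. Groups did not overlap, and the largest step was between 10 and 4 °C. Its log2 fold change over 22 °C was 2.42 ± 0.06 at 0 °C, 1.97 ± 0.06 at 4 °C and 0.44 ± 0.06 at 10 °C. ELF3, the scaffold, stood at 78.4, 74.1 and 72.7 CPM in the libraries at 0 °C, 51.0, 47.2 and 47.3 CPM at 4 °C, 34.7, 37.2 and 34.7 CPM at 10 °C and 25.6, 29.0 and 26.9 CPM at 22 °C. Its groups did not overlap either, and its gradient was shallower than that of ELF4, with 1.47 ± 0.06, 0.84 ± 0.06 and 0.39 ± 0.06 in the same order. LUX, the DNA-binding subunit, stood at 75.0, 77.7 and 77.7 CPM in the libraries at 0 °C, 73.9, 73.7 and 78.1 CPM at 4 °C, 42.8, 42.8 and 41.4 CPM at 10 °C and 36.1, 33.4 and 37.2 CPM at 22 °C. Its libraries formed an upper pair of groups at 0 and 4 °C, which overlapped, and a lower pair that did not. LUX rose by 1.11 ± 0.04 at 0 °C, 1.08 ± 0.04 at 4 °C and 0.25 ± 0.04 at 10 °C (adjusted p = 2.03e-10, 2.64e-10 and 3.24e-04).

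BOA, the relative of LUX, did not follow it. It stood at 7.71, 9.79 and 9.69 CPM in the libraries at 0 °C, 2.38, 2.39 and 2.16 CPM at 4 °C, 1.07, 0.660 and 0.719 CPM at 10 °C and 2.00, 1.79 and 2.21 CPM at 22 °C, from 25.3 to 240.3 estimated counts per library. The libraries at 0 °C were all above the rest, those at 10 °C all below, and those at 4 and 22 °C overlapped. BOA rose 4.53-fold at 0 °C (log2 2.18 ± 0.17, adjusted p = 1.37e-07) and fell by 1.28 on the log2 scale at 10 °C (adjusted p = 6.58e-05). At 4 °C the difference was 0.21 ± 0.17 (95% interval -0.17 to 0.59, adjusted p = 0.297). Per coding kilobase LUX exceeded BOA 7.90 ± 0.933 times at 0 °C, 30.2 ± 2.79 times at 4 °C, 50.0 ± 11.7 times at 10 °C and 16.5 ± 0.854 times at 22 °C (SD, n = 3), so the 2 relatives were closest at 0 °C and farthest apart at 10 °C. BOA overlaps AT5G59580 on the other strand, which stood at 0.428 ± 0.122 CPM at 0 °C and between 0.0861 and 0.222 CPM at the other temperatures. The BOA transcript in the table ends at base 24006107 of chromosome 5, and AT5G59580 spans bases 24005949 to 24007907. Only the 3′ end of that transcript is thus shared. Whether strand was used in counting is not stated in the sources used here, so the reads of 2 overlapping genes cannot be told apart. ELF3 shares 24 bases with AT2G25940 on the other strand, which stood between 2.42 and 3.59 CPM. It also shares 183 bases with AT2G08135, an antisense RNA for which no counts were given.

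Between the cold temperatures, 0 against 4 °C asked whether the last step down added to the change. At 0 °C 7 genes were higher than at 4 °C, PRR5 was lower, and LUX and PRR7 were not called (background 29.2% higher, 28.8% lower). BOA had the largest of these steps, with a log2 difference of 1.97 ± 0.17 (adjusted p = 6.70e-07), followed by PRR9 (0.70 ± 0.06), GI (0.68 ± 0.09), ELF3 (0.63 ± 0.05), TOC1 (0.47 ± 0.06) and ELF4 (0.46 ± 0.06). LUX differed by 0.03 ± 0.04 (95% interval -0.07 to 0.12) and PRR7 by 0.08 ± 0.09 (-0.11 to 0.27). LUX was called lower at 0 °C with total counts alone (-0.25, adjusted p = 1.79e-04), and the sign of PRR7 turned with that scaling (-0.20). Both signs also turned with upper quartile factors (-0.064 for LUX and -0.012 for PRR7). PRR3 passed narrowly (0.32 ± 0.13, adjusted p = 0.0486), its groups overlapped, and it kept its call in 8 of 20 alternatives (adjusted p from 0.0178 to 0.773).

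Against 10 °C all 10 genes were called at 0 °C, 9 higher and PRR7 lower (background 33.9% higher, 36.6% lower). BOA stood out in size, at a log2 difference of 3.46 ± 0.18, next to GI (2.50 ± 0.10), PRR9 (2.42 ± 0.07), ELF4 (1.99 ± 0.06), TOC1 (1.28 ± 0.06) and ELF3 (1.08 ± 0.05). PRR7 was lower by 0.51 ± 0.09 on the log2 scale. PRR5 (0.45 ± 0.04) and PRR3 (0.55 ± 0.13) were higher with TMM, but with total counts alone PRR5 was called lower (-0.12, adjusted p = 0.0305) and PRR3 lost its call (-0.02, adjusted p = 0.894). Of the genes called in that comparison under each scaling, 48.1% of 15023 were higher with TMM, 35.2% of 15534 when upper quartile factors were used and 19.9% of 17237 with total counts alone. At 4 °C 8 genes were higher than at 10 °C, PRR7 was lower and PRR3 was not called (background 29.7% higher, 30.3% lower). GI (1.82 ± 0.09), PRR9 (1.73 ± 0.07), ELF4 (1.53 ± 0.06) and BOA (1.49 ± 0.19) led, and PRR7 differed by -0.59 ± 0.09. PRR3 differed by 0.22 ± 0.13 (95% interval -0.06 to 0.50, adjusted p = 0.151), with the opposite sign under total counts alone (-0.065). The same share of higher calls went from 49.5% with TMM to 37.7% and 24.1% in the 4 against 10 °C comparison, and from 50.3% to 26.2% with total counts alone in the 0 against 4 °C comparison.

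Levels per coding length put the genes in an order that changed with temperature. ELF4 had the highest level per coding kilobase at all 4 temperatures, at 563 ± 32.5 CPM per coding kilobase at 0 °C and 105 ± 8.51 at 22 °C (SD, n = 3). At 22 °C PRR7 came next at 73.1 ± 6.14, overlapping with PRR5 at 70.5 ± 3.19, and at 0 °C PRR7 had dropped to the seventh place at 41.5 ± 4.10. GI moved the other way, from 39.7 ± 4.32 in the fourth place at 22 °C, where it overlapped with LUX at 36.6 ± 2.04, to 304 ± 22.6 in the second place at 0 °C. PRR9 was the seventh at 22 °C (30.5 ± 0.497) and the third at 0 °C (196 ± 13.6). LUX also overlapped with TOC1 at 22 °C and again at 0 °C, and GI with PRR5 at 4 °C. ELF3 held the eighth place at all 4 temperatures. BOA and PRR3 were the lowest, with BOA at the bottom at 4, 10 and 22 °C (0.908 ± 0.244 at 10 °C) and overlapping with PRR3 at 0 °C. The places near the top depend on the length used, since PRR5 led at 10 and 22 °C when exonic length replaced coding length, an alternative chosen after seeing the data. PRR5 has no untranslated part in its model, so its level is the same by either length, while the others are lower per exonic kilobase. Coding length leaves out untranslated parts whose reads may be counted, as in ELF4 with 0.336 coding of 0.619 exonic kilobases.

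**Figure D3:**
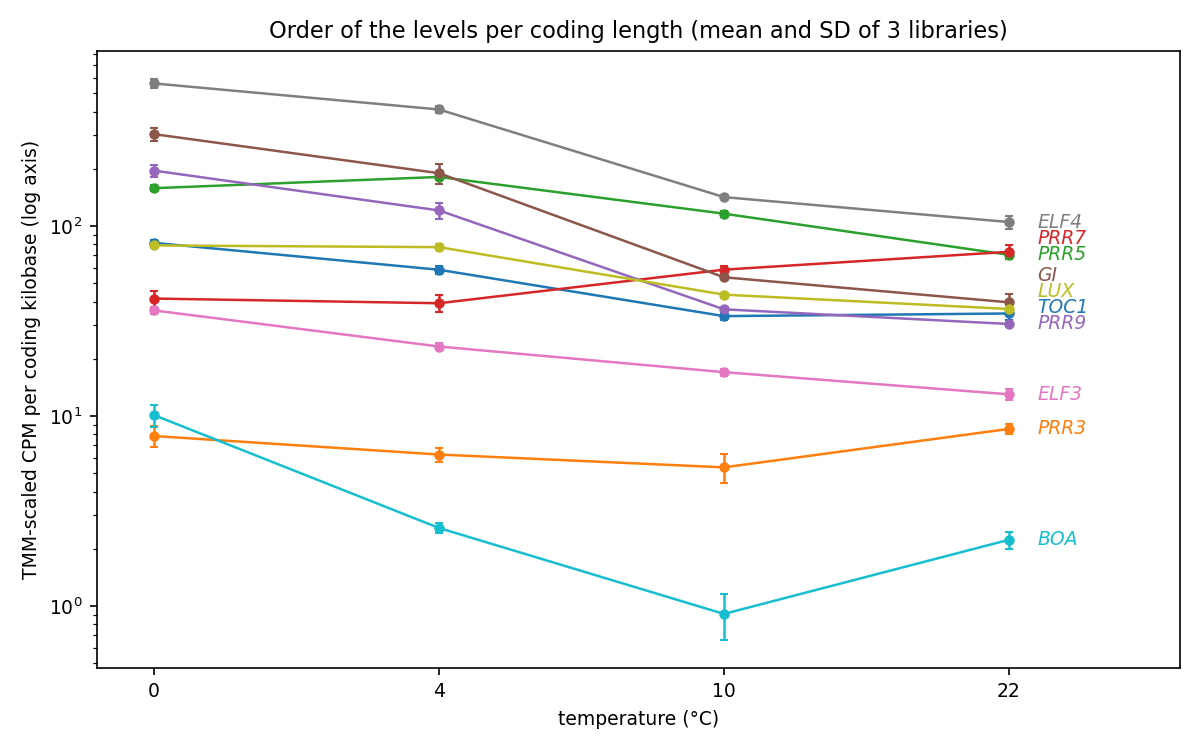
Mean TMM-scaled CPM per coding kilobase of each gene (vertical log axis) at 0, 4, 10 and 22 °C, with the SD of 3 libraries. ELF4 is on top and ELF3 in the eighth place throughout, GI and PRR9 climb and PRR7 drops from 22 to 0 °C, and BOA approaches PRR3 at 0 °C alone.

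Transcript shares asked whether the make-up of each gene's RNA changed as well as its level. Of the 10 genes 7 have a single annotated transcript in the table, so only LUX, PRR9 and PRR3 entered the test of transcript usage, which compares the changes of a gene's transcripts with each other (edgeR's diffSpliceDGE, Simes method, adjusted over 4532 genes). The RefSeq annotation also lists PRR9 transcripts 3 to 5, PRR3 transcripts 4 to 7, PRR7 transcript 2 and BOA transcript 2. None of these has counts in the deposited table. Shares are therefore shares of the transcripts in the table, and the effect of the missing models was not tested. LUX was called in every comparison except 0 against 4 °C. At 0 against 22 °C LUX was among the 14.8% of genes called (adjusted p = 2.45e-08), and PRR9 and PRR3 were not (adjusted p = 0.0945 and 0.115). At 4 and at 10 against 22 °C LUX and PRR9 were called (background 12.9% and 5.71%), with adjusted p = 1.37e-07 and 1.74e-04 at 4 °C and 0.00274 and 0.00352 at 10 °C. LUX alone was called at 0 and at 4 against 10 °C (background 6.60% and 3.11%, adjusted p = 1.26e-04 and 0.00252). None of the 3 genes was called at 0 against 4 °C, where 3.02% of genes were. There the unadjusted p was under 0.05 for PRR9 and PRR3 (0.00229 and 0.00907) and 0.462 for LUX.

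LUX changed from 2 transcripts of like share of the counts at 22 °C to mainly 1 at 0 and 4 °C. Scaled by transcript length, transcripts 1 and 2 of LUX held 66.7% and 32.2% at 22 °C. Its transcript 2 (AT3G46640.2) held 44.4%, 48.4% and 43.8% of the gene's estimated counts in the libraries at 22 °C, 14.8%, 15.0% and 18.0% at 10 °C, 3.79%, 2.76% and 6.34% at 4 °C and 3.50%, 2.28% and 4.23% at 0 °C. The libraries at 0 and 4 °C overlapped, and all of them were below those at 10 °C, which were below those at 22 °C. The means were 45.5% ± 2.48, 15.9% ± 1.78, 4.30% ± 1.85 and 3.34% ± 0.985 (SD, n = 3). As a level, transcript 2 stood at 16.2, 16.3 and 16.3 CPM at 22 °C and at 2.62, 1.76 and 3.28 CPM at 0 °C, while transcript 1 stood at 19.9, 17.4 and 20.5 CPM and 70.8, 74.9 and 73.1 CPM. In the cold transcript 1 was higher and transcript 2 lower, with no overlap between the libraries at 0 and 22 °C. Relative to the gene as a whole the log2 change of transcript 2 was -2.61 ± 0.25 at 0 °C, -2.35 ± 0.24 at 4 °C and -1.05 ± 0.22 at 10 °C. Transcript 3 held at most 1.86% of the counts in any library and was not called.

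The annotated models of LUX transcripts 1 and 2 encode the same protein of 323 amino acids and differ in their untranslated ends. LUX lies at chr3:17183042-17186959 on the plus strand of TAIR10.1. Transcript 1 is a single exon of 1845 bases, while transcript 2 splices from base 1219 of the gene to base 1848 and runs on to base 3918, which gives it a 3′ untranslated region of 2112 bases against 667. Transcript 3 encodes another C-terminal end, with its first 292 of 324 amino acids shared with transcript 1. Because transcript 2 is the longer at 3242 bases, its share per length was lower than its share of counts, with 32.2% ± 2.27 in the libraries at 22 °C, 9.69% ± 1.16 in those at 10 °C, 2.49% ± 1.097 at 4 °C and 1.92% ± 0.571 at 0 °C, in the same order. The last exon of transcript 2 overlaps AT3G46650 on the other strand, and that gene stood at 0 CPM in all libraries at 10 and 22 °C and at 0.0830 CPM or less on average at 0 and 4 °C. The models were taken from RefSeq by transcript number, and the authors' own models may differ.

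**Figure D4:**
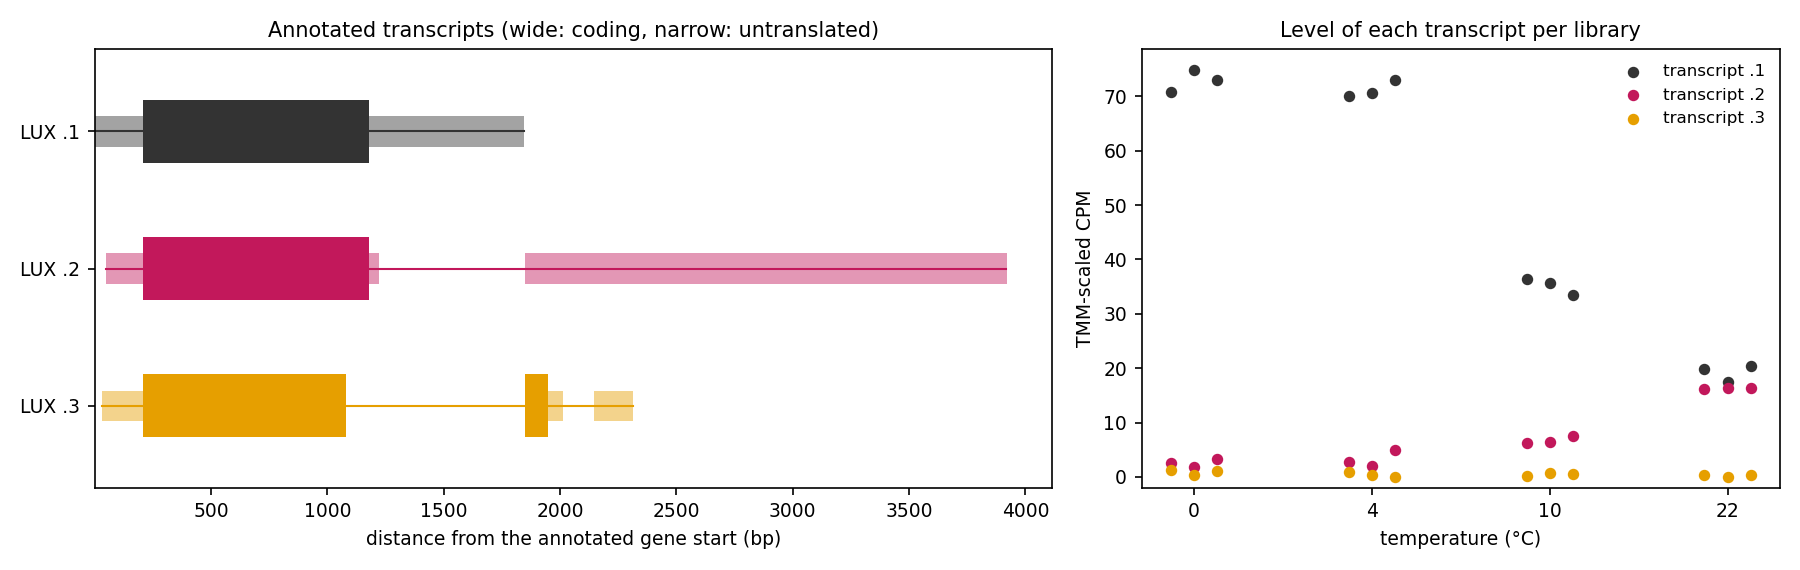
Left, the exons of the 3 annotated LUX transcripts by distance from the gene start in bases (wide boxes coding, narrow boxes untranslated, lines introns). Right, TMM-scaled CPM of each transcript in every library by temperature. Transcripts 1 and 2 lie near each other at 22 °C, and transcript 1 rises and transcript 2 falls towards 0 °C.

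PRR9 kept both of its transcripts in the table at all temperatures, with transcript 2 making up less of their total at 4 and 10 °C. Transcript 2 (AT2G46790.2) held 49.8%, 47.1% and 38.3% of the counts at 22 °C, 27.9%, 31.4% and 27.1% at 10 °C, 25.3%, 26.7% and 27.0% at 4 °C and 35.8%, 34.4% and 36.4% at 0 °C. The libraries at 22 °C were above all others and spread the most, those at 0 °C came next, and those at 10 and 4 °C were the lowest, next to each other without overlap. The log2 change of transcript 2 relative to the gene was -0.54 ± 0.08 at 4 °C, -0.45 ± 0.08 at 10 °C and -0.24 ± 0.08 at 0 °C, the last not called. Without the third library at 22 °C, which has the lowest share of its group, PRR9 was called at 0 °C too (adjusted p = 0.0185). The 2 models differ in the end of exon 2, where transcript 2 uses a splice donor that retains 8 more bases (in capitals). They also differ at both ends, as transcript 1 runs from base 1 to base 2573 of the gene and transcript 2 from 37 to 2511. Which of these differences the estimated shares reflect was not tested. The annotated protein of transcript 1 has 468 amino acids and that of transcript 2 has 351, of which the last 350 are shared, so the start of the protein, which holds the receiver-like domain, is cut short in transcript 2.
PRR9 donor (chr2:19233312-19233341, plus strand): tcctgtcataaGTACGATGgtgatccccta

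PRR3 had shares that spread widely between libraries. Transcript 1 (AT5G60100.1) held 76.5%, 75.3% and 90.9% at 0 °C, 18.4%, 47.6% and 37.5% at 4 °C, 60.4%, 41.1% and 92.3% at 10 °C and 42.1%, 57.9% and 32.5% at 22 °C, and transcript 3 held the rest. The libraries at 0 °C were above those at 4 and 22 °C, but those at 10 °C overlapped with all 3 other groups, and no comparison was called. Without the third library at 10 °C, whose share of transcript 1 is the highest, PRR3 was called at 0 against 22 °C (adjusted p = 0.0222) and at 0 against 4 °C (adjusted p = 0.0267). Transcripts 1 and 3 encode the same protein of 495 amino acids. Transcript 2 had no count in any of the 12 libraries, which allows up to 0.127 CPM in the shallowest one (3 counts, counting error only).

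**Figure D5:**
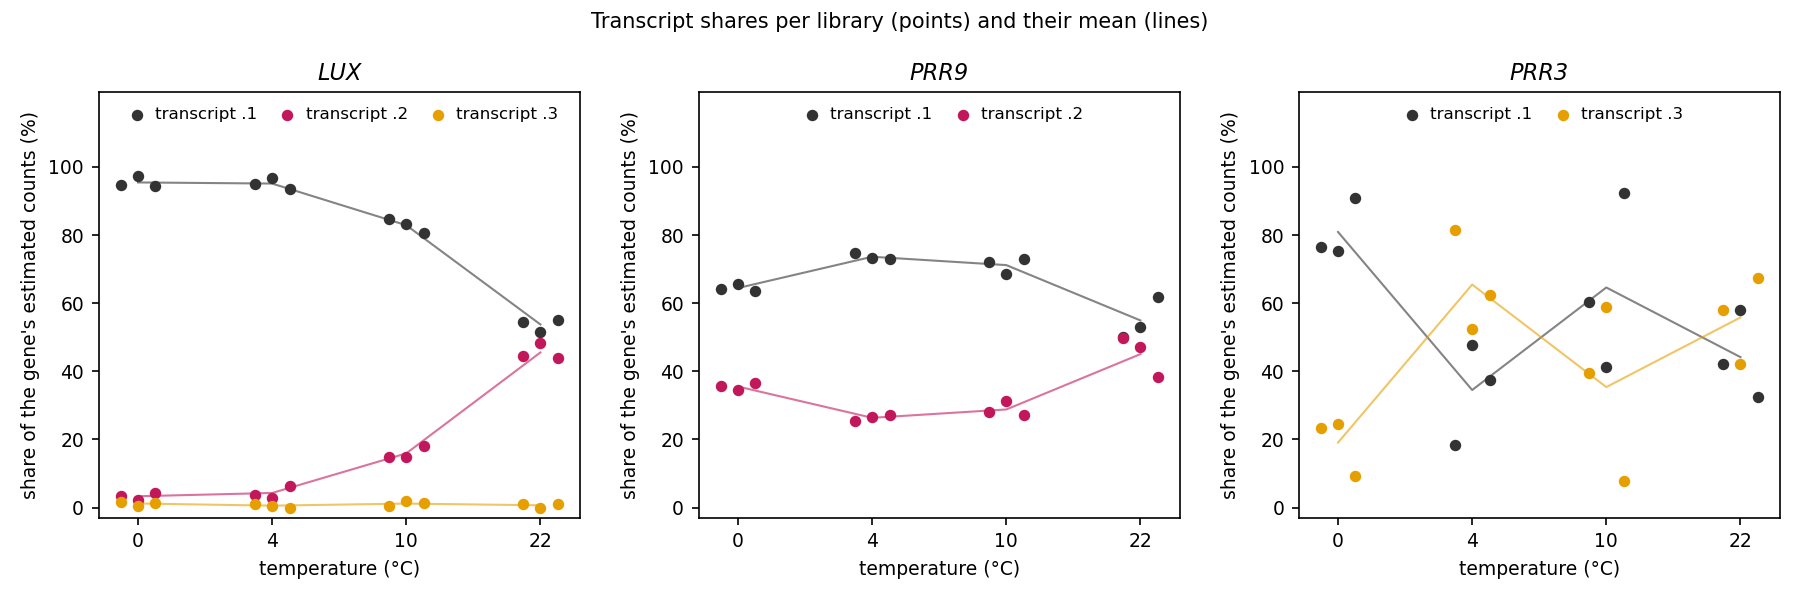
Share of each annotated transcript in the estimated counts of LUX, PRR9 and PRR3 (vertical axes, percent) by temperature, with a point per library and lines through the means. LUX transcript 2 drops from between 43.8% and 48.4% at 22 °C to between 2.28% and 4.23% at 0 °C, PRR9 shifts by less, and the PRR3 libraries scatter.

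The genes were also compared by their profile over the 12 libraries, as the root-mean-square difference of centred log2 levels (log2 of CPM + 0.5), a description without a test. Levels were centred but not scaled, so the size of a gene's changes counts as well as their shape. Among the 10, PRR9 and GI were the most alike, at 0.141, followed by TOC1 and ELF3 (0.175), PRR9 and ELF4 (0.192) and PRR5 and LUX (0.198). LUX and BOA were at 0.802, and PRR7 and GI were the least alike at 1.58. Each gene had closer profiles outside the 10 among 14401 genes that averaged 5 CPM or more. The 2 closest to TOC1 were AT1G07870 at 0.0753 and SPY (AT3G11540) at 0.0779, to GI PUB45 (AT1G27910) at 0.121 and BGLU9 (AT4G27820) at 0.122, and to PRR9 BGLU25 (AT3G03640) at 0.0944 and AT3G04140 at 0.0991. ELF4 was closest to AT2G47890 at 0.0750, ELF3 to PUX5 (AT4G15410) at 0.0693, LUX to AT3G04550 at 0.0553, PRR5 to AT4G14900 at 0.0591, PRR7 to AT2G25790 at 0.0858 and PRR3 to AT1G68670 at 0.0884. BOA had the least close neighbours, led by ERF6 (AT4G17490) at 0.195. Its own means were 2.31, 0.815 and 2.00 CPM at 4, 10 and 22 °C, below the 5 CPM minimum of the search. How far that minimum and counting error enlarge its differences was not tested.

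Genes that work beside the 10 give the setting. The background for the lists below is the share over all tested genes against 22 °C. It was 35.5% higher and 38.8% lower at 0 °C, 36.3% and 37.6% at 4 °C and 32.4% and 32.3% at 10 °C. The median log2 fold changes over all tested genes were -0.07, -0.03 and -0.01. No list was tested against these values. Of 13 morning MYB-like factors and LNK coactivators, 10 were higher and 1 lower at 0 °C than at 22 °C, 11 were higher and 1 lower at 4 °C and 6 were higher and 3 lower at 10 °C, with median log2 fold changes of 2.24, 1.36 and 0.12. CCA1 rose to 691 ± 16.4 CPM at 0 °C from 60.0 ± 2.97 CPM at 22 °C (SD, n = 3). LHY was highest at 4 °C, at 193 ± 13.0 CPM against 8.25 ± 1.15 CPM. RVE2 went from 0.228 ± 0.373 CPM to 143 ± 5.12 CPM at 0 °C. RVE8, an activator of evening element genes, stood at 9.49 ± 0.166 CPM at 22 °C and fell to 0.553 ± 0.654 CPM at 0 °C, and its estimate was 0 in the 3 libraries at 4 °C, at least 92.0-fold lower with a floor of 3 counts per library. With RVE8 at that bound the median of the list at 4 °C was also 1.36.

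Of the 5 relatives of ELF4 and ELF3, 1 was higher and 2 lower at 0 °C, 0 were higher and 2 lower at 4 °C, and 0 were higher and 2 lower at 10 °C (medians 0.02, -0.23 and -0.37). The count of lower genes was 1 and not 2 at 0 °C in 15 of 20 alternatives, 10 of which leave out 1 library, and at 4 °C it ranged from 1 to 3. EEC, a relative of ELF3, stood at 3.68 ± 0.660 CPM at 0 °C and at 0.108 ± 0.0785 CPM at 22 °C, while ELF4-L2 fell from 17.2 ± 0.739 CPM to 4.04 ± 0.438 CPM, opposite to ELF4. ELF4-L3 was lower at 10 °C (-1.09 ± 0.19). Its difference at 4 °C was -0.45 ± 0.18 (adjusted p = 0.0401), with overlapping libraries and a call in 7 of 19 alternatives (adjusted p from 0.00395 to 0.194). ELF4-L4 differed by -0.26 ± 0.11 at 0 °C (adjusted p = 0.0420), also with overlapping libraries and a call in 5 of 20 alternatives (adjusted p from 6.77e-05 to 0.209). Of 10 partners of GI and genes of the day-length pathway, 9 were higher and 0 lower at 0 °C, 10 were higher and 0 lower at 4 °C and 6 were higher and 1 lower at 10 °C (medians 1.74, 0.78 and 0.53). FKF1, the partner of GI in the control of CO, rose with log2 fold changes of 2.95 ± 0.10, 2.78 ± 0.10 and 0.92 ± 0.10 at 0, 4 and 10 °C. CDF5, a repressor of CO, rose from 5.61 ± 0.624 to 97.1 ± 2.71 CPM at 0 °C and CO from 0.339 ± 0.158 to 4.27 ± 0.252 CPM. FT, the flowering signal, was highest at 10 °C, at 13.7 ± 1.33 CPM against 1.30 ± 0.0394 CPM at 22 °C, and its difference at 0 °C was 0.06 ± 0.16 (adjusted p = 0.771), with the opposite sign under upper quartile factors (-0.17) and total counts alone (-0.35).

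Of 4 growth-related genes listed as targets of the evening complex or of response regulators, 2 were higher and 2 lower at 0 °C, 1 was higher and 3 lower at 4 °C and 1 was higher and 3 lower at 10 °C (medians -0.39, -1.02 and -0.98). PIF4, repressed by the evening complex, was lowest at 4 °C, at 6.70 ± 0.992 CPM against 17.5 ± 1.69 at 0 °C, 25.8 ± 0.482 at 10 °C and 93.6 ± 3.25 at 22 °C. PIF5 fell to 28.8 ± 4.63 CPM at 0 °C and 39.0 ± 2.18 CPM at 4 °C from 104 ± 4.16 CPM at 22 °C. At 10 °C it fell by 0.27 ± 0.08 on the log2 scale (adjusted p = 0.0100), a call lost with total counts alone (-0.12, adjusted p = 0.225). PIL1 rose at each cold temperature, from 0.237 ± 0.0864 to 9.66 ± 0.725 CPM at 0 °C. HFR1 was higher at 0 °C (1.08 ± 0.09) and lower at 4 and 10 °C (-0.62 ± 0.09 and -1.69 ± 0.10). Of 19 other clock-associated genes, 12 were higher and 6 lower at 0 °C, 10 were higher and 5 lower at 4 °C and 9 were higher and 4 lower at 10 °C (medians 0.75, 0.59 and 0.19). COR27 and COR28, night-time regulators that act on TOC1 and PRR5, rose to 771 ± 24.3 and 153 ± 4.32 CPM at 0 °C from 8.28 ± 0.745 and 14.2 ± 0.549 CPM. BBX18, a B-box factor, and GRP7, an RNA-binding protein that feeds back on its own splicing, rose too, by 3.59 ± 0.06 and 3.42 ± 0.06 at 0 °C.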

How the data were processed

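Total RNA of 12 pools of whole plantlets was sequenced as paired-end reads, per the labels' protocols. The authors deposited estimated counts, which can be fractional, and CPM values for 56132 transcripts. These CPM values were the deposited counts divided by column totals (largest difference 5.09e-11). The submitters' processing notes list HISAT2 2.2.0, kallisto 0.42.4, edgeR and the build TAIR10, without the step each did. Estimated counts divide reads among similar sequences by a model, so shares of overlapping transcripts are estimates. A further 6 columns that match no sample were not used, and 14509 assembled transcripts without a locus name (9.79% to 12.2% of a library's counts) were left out, so reads they took from a gene are not in its level.

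The counts were summed over the annotated transcripts of a locus and then rounded. Genes passing filterByExpr (21293, all 10 genes among them) were tested with edgeR 4.0.16 (R 4.3.3), glmQLFit and glmQLFTest, in 1 fit of all 12 libraries with a mean per temperature, TMM factors (0.792 to 1.19) and Benjamini-Hochberg adjustment over all genes in each comparison. A gene was called at an adjusted p under 0.05. The standard error of a log2 fold change was its size over the root of F. Usage was tested with diffSpliceDGE on 10529 transcripts of 4532 genes. The chain was tested on simulated data. Chamber runs are not given, so p-values reflect the spread between these libraries, which may be technical. Floors cover counting error only.

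The 10 genes and the 5 lists of other clock genes were chosen with earlier results of these data known. Of 52 listed genes 51 matched their reference symbol and all 51 were tested. Named from each list were at most 4 genes with the largest absolute change against 22 °C among those called, and CCA1 and LHY. The 2 genes with the most similar profile were taken for each of the 10, and some were left out for length. Gene models, proteins and promoters came from the RefSeq annotation of TAIR10.1. Other normalizations, filters, a replicate block, fits of 6 samples, DESeq2 1.42.0 and leaving out each library were alternatives.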

Additional observations from a re-analysis of the deposited data

How the results depend on the processing

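Over all alternatives, 1169 of the changes of the 10 genes kept their direction and their side of the threshold, 13 lost a call, 2 gained one and 10 changed sign. Without any 1 library, called genes among the 10 numbered 9 in each comparison with 22 °C, 10 at 0 against 10 °C, 9 at 4 against 10 °C and 7 to 8 at 0 against 4 °C. Over all genes, 21522 to 21573 were tested in those fits. Called were 15139 to 16005 at 0, 15028 to 15903 at 4 and 12890 to 13978 at 10 against 22 °C. They numbered 14290 to 15196 at 0 against 10 °C, 11710 to 12898 at 4 against 10 °C and 11537 to 12448 at 0 against 4 °C. Of LUX, PRR9 and PRR3, the only ones in the test of transcript usage, 1 to 2 were called at 0 against 22 °C without any 1 library. At 0 against 4 °C 0 to 1 were called. The higher number came without replicate 3 at 10 °C (PRR3) or at 22 °C (PRR9). The share of all genes called for usage was not recorded in those fits. With all libraries it was 14.8% at 0 against 22 °C and 3.02% at 0 against 4 °C. Replicate numbers did not pair the libraries (correlations of deviations from -0.072 to 0.195, 1 of 18 pairs over 0.1, 4 of 12 libraries closest to their own number). With a replicate block 9 of the 10 genes were called at 0 against 22 °C and 7 at 0 against 4 °C, where PRR3 lost its call (adjusted p = 0.0609). With that block 15686 of all 21293 tested genes were called at 0 against 22 °C and 12122 at 0 against 4 °C.

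Total counts alone moved the median of all genes by -0.41, -0.14 and 0.15 on the log2 scale at 0, 4 and 10 °C against 22 °C, and by -0.28, -0.57 and -0.29 at 0 against 4, 0 against 10 and 4 against 10 °C. Upper quartile factors moved it by -0.23, -0.14, -0.018, -0.093, -0.21 and -0.12 in the same order. Among the differences that changed sign, PRR3 and PRR5 at 0 against 10 °C were called higher with TMM (0.55 and 0.45), and no other was called with TMM. With total counts alone TOC1 was at 0.11 at 10 against 22 °C, PRR7 at -0.20 and LUX at -0.25 at 0 against 4 °C, PRR3 at -0.020 and PRR5 at -0.12 at 0 against 10 °C, and PRR3 at -0.065 at 4 against 10 °C. With upper quartile factors PRR7 was at -0.012 and LUX at -0.064 at 0 against 4 °C, and with a minimum mean of 5 CPM LUX was at -0.010. Among listed genes at 0 against 22 °C, ELF4-L3 was at -0.21 and FT at -0.17 with upper quartile factors and at -0.39 and -0.35 with total counts alone, and FT was at -0.030 with the 5 CPM minimum. Without any 1 library, 9 differences took both signs. Their ranges were -0.10 to 0.0028 for TOC1 at 10 against 22 °C, -0.011 to 0.16 for FT and -0.16 to 0.20 for ELF4-L3 at 0 against 22 °C, -0.052 to 0.11 for ELF4-L4 and -0.035 to 0.96 for EEC at 10 against 22 °C. For usage they were -0.0053 to 0.012 for LUX transcript 1 and -0.42 to 0.014 for transcript 2 at 0 against 4 °C, and -0.30 to 0.32 at 0 against 10 °C and -0.93 to 0.21 at 4 against 22 °C for transcript 3. The cause was not tested. Without any 1 library, the genes called lower among the 5 relatives of ELF4 and ELF3 numbered 1 to 2 at 0 and at 4 °C, and those among the 19 other clock genes 4 to 7 at 0 °C. Depth limits BOA most, with 25.3 counts in its lowest library.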
